A study of Mus musculus with 21 samples.

Results

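The Tob and Btg genes encode a small family of antiproliferative proteins, and 5 of them, Tob1, Tob2, Btg1, Btg2 and Btg3, were described here among the 11628 genes of a table of expression in mouse bone marrow progenitors. Members were taken by gene symbol, and the family was chosen by measured values, because an earlier look at the same RPKM values had placed Tob1 among the genes that differed between Etv6 mutant and wild-type multipotent progenitors. That comparison is therefore given as a description for all 5 genes, and Tob1 was tested in no comparison with those libraries on either side. The fit behind every test took its spread from all libraries together, those included. The design counts 4 mutant and 3 wild-type mice, so those libraries and the libraries of the other populations may also come from the same mice. The Tob1 tests in the other populations are thus not independent of the values that chose it.

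Haematopoietic stem cells (HSC), multipotent progenitors (MPP4) and common lymphoid progenitors (CLP) were sorted from bone marrow, with 4 libraries from homozygous Etv6 mutant mice and 3 from wild-type mice for each population, 21 libraries in all. The HSC gate was Lin-negative, cKit+, Sca1+, FLK2-negative, CD150+ and CD38-negative, the MPP4 gate Lin-negative, cKit+, Sca1+ and FLK2+, and the CLP gate Lin-negative, IL7+, Flk2+, cKit-low and Sca1-low. Mutant mice, labelled ETV6 mt/mt, carried the homozygous germline allele given as P214L in Etv6, an ETS family transcriptional repressor needed by stem cells. In each population replicate 1 was a female of 12 weeks, replicate 2 a male of 12 weeks and replicate 3 a female of 10 weeks in both genotypes, while mutant replicate 4 was a female of 12 weeks in HSC and MPP4 and of 10 weeks in CLP. The design counts 4 mutant and 3 wild-type mice, so libraries of different populations may share mice. The allele changes 1 amino acid, and a table of expression values cannot check which libraries carry it.

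Levels are read counts scaled to transcript length and library size (RPKM), which can be set side by side between genes. The 21 columns summed to between 337818 and 376135 RPKM, and the read depth behind them is unknown. Their upper quartiles were close, at 29.6 to 30.6 RPKM, and no label or header says whether libraries were scaled to each other once more before deposit. Markers of the labelled populations followed the labels. Slamf1, which encodes the CD150 of the stem cell gate, averaged 26.7 ± 3.69 RPKM in mutant HSC and 22.6 ± 5.26 in wild-type HSC (SD, n = 4 and 3) and at most 1.74 RPKM in the mean of any other group. Flt3, which encodes FLK2, averaged between 365.5 and 384.3 RPKM in the MPP4 and CLP groups and 13.97 to 14.86 in the HSC groups, and Il7r was highest in CLP, at 89.8 ± 10.7 RPKM in mutant and 91.3 ± 3.73 in wild-type cells.

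Tob and Btg proteins share an amino-terminal domain that binds the deadenylase subunits Cnot7 and Cnot8 of the CCR4-NOT complex, which shortens poly(A) tails and so starts the decay of messenger RNA. Tob1 and Tob2 also bind the poly(A)-binding protein through their carboxy-terminal region, while Btg1 and Btg2 are short proteins of little more than the shared domain and can bind the arginine methyltransferase Prmt1. High levels of these proteins slow entry into the cell cycle in many cell types. In lymphocytes Tob1, Btg1 and Btg2 are known for restraining activation and division of resting cells, and Btg1 and Btg2 take part in B-cell development. Btg2 is a textbook target of p53 and an early response gene, and Btg1 is a known FoxO target.

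The 250 bases before the annotated start are shown for Tob1, Btg1 and Btg2, the 3 members whose levels differed between populations in both genotypes. All 5 genes were found among the RefSeq promoters of GRCm38.p6. Tob1 is on the + strand (chr11:94211204-94211453), Btg1 on the + strand (chr10:96616751-96617000) and Btg2 on the minus strand (chr1:134079156-134079405), each printed 5′ to 3′ along its gene with matches on either strand in capitals. Capitals mark the box CCAAT, the TATA-like word TATAAA, the FoxO word TGTTTAC, the cyclic AMP response element TGACGTCA and the ETS word CCGGAA, and no capitals of 2 motifs overlap.
Tob1: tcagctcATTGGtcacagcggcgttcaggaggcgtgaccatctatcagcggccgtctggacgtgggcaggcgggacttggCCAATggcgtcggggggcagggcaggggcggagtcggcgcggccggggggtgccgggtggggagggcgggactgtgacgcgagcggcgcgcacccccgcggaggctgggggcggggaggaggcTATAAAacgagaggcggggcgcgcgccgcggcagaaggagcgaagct
Btg1: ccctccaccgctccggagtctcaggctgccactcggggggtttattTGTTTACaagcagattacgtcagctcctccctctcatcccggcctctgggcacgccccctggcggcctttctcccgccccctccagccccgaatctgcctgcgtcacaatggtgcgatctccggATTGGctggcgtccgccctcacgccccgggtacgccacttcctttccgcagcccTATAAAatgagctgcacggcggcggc
Btg2: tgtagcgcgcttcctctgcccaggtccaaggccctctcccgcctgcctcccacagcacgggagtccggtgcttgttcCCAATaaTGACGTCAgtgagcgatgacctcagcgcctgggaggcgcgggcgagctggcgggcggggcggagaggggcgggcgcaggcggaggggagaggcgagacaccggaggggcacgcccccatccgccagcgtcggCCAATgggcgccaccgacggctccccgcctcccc

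The Tob1 window was 73.6% G and C and held CCAAT beginning 243 (on the reverse strand) and 170 bases before the start and TATAAA beginning 47 bases before it. Btg1 held TGTTTAC 204 bases and TATAAA 26 bases before its start, with CCAAT on the reverse strand 80 bases before it, and its window was 65.2% G and C. Btg2 held TGACGTCA 166 bases before its start, with CCAAT 173 and 34 bases before it. Across 32851 mouse promoters cut to the same 250 bases, TGTTTAC was present in 3.17%, TGACGTCA in 1.55%, TATAAA in 12.4%, CCAAT in 33.8% and CCGGAA in 12.0%. CCGGAA, the longer ETS word, was in no window of the 5 genes. Its core GGAA, contained in CCGGAA and present in 93.4% of promoters, was found 5 times in the Tob2 window (chr15:81858327-81858576) and 2 times each in the Btg1 and Btg2 windows and in the second of 2 RefSeq windows of Btg3, and those letters were not in the Tob1 window or the first window of Btg3.

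Tob1 was highest in HSC and lowest in CLP, and it was the member that stood highest in mutant relative to wild-type cells. The gene lies on chromosome 11 (94211454 to 94215495, + strand, GRCm38, GENCODE M21). In HSC it measured 19.6, 17.4, 22.2 and 20.3 RPKM in the mutant libraries, against 13.8, 9.91 and 17.2 RPKM in the wild-type libraries. In MPP4 it measured 14.6, 15.7, 21.4 and 17.5 RPKM in mutant and 7.57, 8.59 and 10.8 RPKM in wild-type libraries. In CLP the values were 6.07, 6.59, 6.80 and 7.66 RPKM in mutant and 5.14, 6.46 and 5.94 RPKM in wild-type libraries. Every mutant library thus lay above every wild-type library in HSC, by a narrow margin at the nearest pair, and in MPP4 by a wider one, whereas the genotypes overlapped in CLP.

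Tob2, the closest relative of Tob1 and a binder of the same partners, was the member with the flattest profile. It lies on the minus strand of chromosome 15 (81848272 to 81858796) and overlaps the antisense gene Gm49476, and since the library kit does not mark strand, reads of the pair cannot be told apart. Its libraries ran from 29.5 to 37.8 RPKM in mutant HSC and 29.6 to 33.3 in wild-type HSC, from 33.5 to 38.7 in mutant MPP4 and 28.4 to 34.1 in wild-type MPP4, and from 27.6 to 34.3 in mutant CLP and 26.9 to 37.2 in wild-type CLP. It was the most abundant of the 5 in the mean of every group, between 30.5 and 36.2 RPKM, and the genotypes overlapped in each population.

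Btg1, whose loss or mutation is known from lymphoid malignancies, was highest in CLP. The gene lies on the + strand of chromosome 10 (96617006 to 96622809). Related copies on the X chromosome named Btg1b and Btg1c were not analysed here, and no source used here says how shared reads were counted, so its level carries that uncertainty. It measured 9.12, 8.55, 8.57 and 10.2 RPKM in mutant HSC and 9.90, 9.21 and 11.9 in wild-type HSC. It measured 7.10, 8.10, 9.90 and 8.37 RPKM in mutant MPP4 and 7.04, 6.03 and 7.51 in wild-type MPP4. In CLP it reached 12.6, 17.7, 14.0 and 14.8 RPKM in mutant and 12.4, 18.3 and 18.8 in wild-type libraries. All 7 CLP libraries stood above all 14 HSC and MPP4 libraries.

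Btg2, the member best known as an inducible brake on G1 progression, was low in HSC and among the more abundant transcripts in both later populations. It lies on the minus strand of chromosome 1 (134075170 to 134079120). It measured 4.08, 9.28, 6.18 and 4.69 RPKM in mutant HSC and 5.11, 4.82 and 2.64 in wild-type HSC. In MPP4 it measured 21.9, 34.6, 28.8 and 33.4 RPKM in mutant and 26.9, 19.1 and 24.5 in wild-type libraries. In CLP it measured 22.8, 37.7, 26.2 and 30.0 RPKM in mutant and 23.7, 32.9 and 32.0 in wild-type libraries. Every HSC library lay below every MPP4 and CLP library, and the genotypes overlapped in all 3 populations.

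Btg3, a more distant member reported to restrain the cell cycle factor E2f1, varied little. It lies on the minus strand of chromosome 16 (78332637 to 78377192) and overlaps Cxadr on the other strand, with the same limit on telling reads apart. Mutant libraries measured 10.3 to 14.3 RPKM in HSC, 8.03 to 10.9 in MPP4 and 5.75 to 11.7 in CLP. Wild-type libraries measured 9.76 to 12.1 RPKM in HSC, 8.24 to 8.83 in MPP4 and 8.11 to 10.9 in CLP. The genotypes overlapped in each population.

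**Figure D1:**
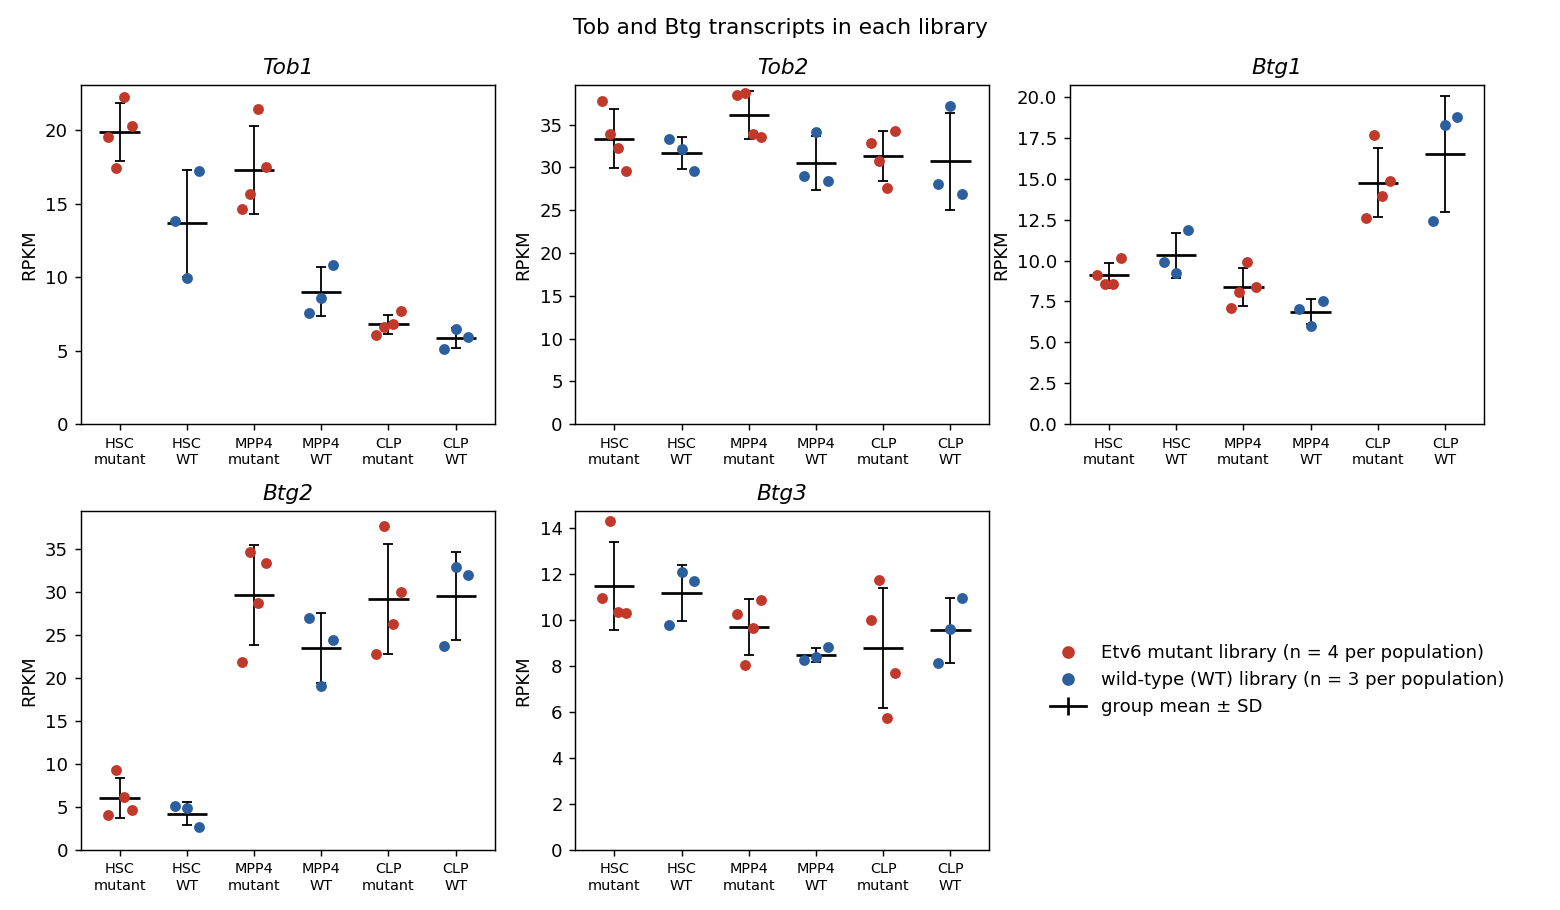
RPKM of Tob1, Tob2, Btg1, Btg2 and Btg3 (vertical axes, each from 0) in each library of the 6 groups (horizontal axes), with mutant groups to the left of wild type and bars for the group mean ± SD (n = 4 and 3). Tob1 averages 17.3 RPKM in mutant MPP4 and 8.999 RPKM in wild-type MPP4, Btg2 is at most 9.28 RPKM in the HSC libraries, and Btg1 is highest in CLP.

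The mean levels of the family members changed order between the populations. In wild-type HSC the order was Tob2 at 31.7 ± 1.87 RPKM, Tob1 at 13.7 ± 3.66, Btg3 at 11.2 ± 1.24, Btg1 at 10.3 ± 1.37 and Btg2 at 4.19 ± 1.35 (SD, n = 3). Tob1, Btg3 and Btg1 overlapped there, while Tob2 stood above and Btg2 below all the others. In wild-type MPP4 Tob2 averaged 30.5 ± 3.16 RPKM and Btg2 23.5 ± 4.03, followed by Tob1 at 8.999 ± 1.67, Btg3 at 8.49 ± 0.306 and Btg1 at 6.86 ± 0.759. Tob2 lay above Btg2 in every library there, Tob1 and Btg3 overlapped, and Btg1 lay below both. In wild-type CLP Tob2 at 30.7 ± 5.65 RPKM and Btg2 at 29.5 ± 5.09 were within their spread of each other, Btg1 followed at 16.5 ± 3.54, then Btg3 at 9.54 ± 1.42, and Tob1 was lowest at 5.85 ± 0.669. Btg1, Btg3 and Tob1 did not overlap with each other in that population, and the order of the 5 means was the same in mutant as in wild-type cells in each population. Set against all genes of the table, the mean of Tob1 stood at percentile 62.4 in mutant HSC and 50.5 in wild-type HSC, 58.6 in mutant MPP4 and 40.7 in wild-type MPP4, and 34.3 in mutant CLP and 30.8 in wild-type CLP.

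The summed level of the 5 genes averaged 79.9 ± 3.61 RPKM in mutant HSC and 71.0 ± 2.56 in wild-type HSC, 101.2 ± 5.96 in mutant MPP4 and 78.3 ± 1.96 in wild-type MPP4, and 90.9 ± 10.8 in mutant CLP and 92.2 ± 13.7 in wild-type CLP (SD, n = 4 and 3). Tob1 made up 25.0% ± 3.21 of that sum in mutant HSC and 19.1% ± 4.52 in wild-type HSC, 17.1% ± 2.52 in mutant MPP4 and 11.5% ± 1.96 in wild-type MPP4, and 7.52% ± 0.966 in mutant CLP and 6.37% ± 0.238 in wild-type CLP. The Btg2 share averaged 7.53% ± 2.65 in mutant HSC and 5.94% ± 2.01 in wild-type HSC, and between 29.1% and 32.0% in the 4 MPP4 and CLP groups. Tob2 held the largest share of the mean in each group, 41.7% ± 3.13 in mutant HSC and 44.7% ± 3.59 in wild-type HSC at the top of its range.

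Whether the Etv6 allele moved these genes was examined by comparing mutant with wild-type libraries in each population with limma, on log2(RPKM + 1), over 11496 genes. In HSC none of the 5 members passed, and 1, Tob1, had an unadjusted p under 0.05, in a comparison in which 0.0522% of all genes were called (6 genes, and 512 with an unadjusted p under 0.05). Tob1 was 0.54 log2 higher in mutant HSC (SE 0.16, 95% interval 0.21 to 0.86, Benjamini-Hochberg adjusted p = 0.695 by limma). It was the only member whose HSC libraries did not overlap between genotypes, a pattern in which the mutant libraries lay above for 3.36% of all genes. Without wild-type HSC replicate 2, the lowest library, the difference was 0.34, and without wild-type replicate 3, the highest, it was 0.71. Btg2 differed by 0.42 in HSC (SE 0.23, 95% interval -0.06 to 0.91), and the changes of Tob2, Btg1 and Btg3 lay between -0.16 and 0.07 (adjusted p = 0.9996 for each of these 4 by limma).

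In MPP4 the same difference is a description, because it led to the choice of the genes. Tob1 was 0.87 log2 higher in mutant MPP4 (SE 0.16), at 17.3 ± 2.99 RPKM in mutant and 8.999 ± 1.67 in wild-type cells (SD, n = 4 and 3). Across all genes 0.217% were called (25 genes, of which 12, or 0.104% of all, were higher), and the mutant libraries lay above the wild-type ones without overlap for 6.68%. The share of calls that were higher was 48.0% on the values as deposited, 25.0% after quantile normalization and 36.4% after median-ratio scaling. The other 4 genes were also higher on average in mutant MPP4, Btg2 by 0.32 (SE 0.23), Btg1 by 0.25 (SE 0.14), Tob2 by 0.24 (SE 0.11) and Btg3 by 0.17 (SE 0.17), each with overlapping libraries.

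Within each sex and age label, mutant libraries lay above the wild-type library for Tob1 in all 3 populations. In HSC and MPP4 every mutant library lay above every wild-type one, so any such split must give that order there. The MPP4 values also led to the choice of Tob1. Among females of 12 weeks it measured 19.6 and 20.3 RPKM in mutant HSC and 13.8 in wild-type HSC, and 14.6 and 17.5 in mutant MPP4 and 7.57 in wild-type MPP4. The males of 12 weeks gave 17.4 RPKM in mutant and 9.91 in wild-type HSC, and 15.7 in mutant and 8.59 in wild-type MPP4. The females of 10 weeks gave 22.2 RPKM in mutant and 17.2 in wild-type HSC, and 21.4 in mutant and 10.8 in wild-type MPP4. In CLP, where the groups as a whole overlapped, the females of 12 weeks gave 6.07 RPKM in mutant and 5.14 in wild-type cells, the males of 12 weeks 6.59 in mutant and 6.46 in wild-type cells, and the females of 10 weeks 6.80 and 7.66 in mutant and 5.94 in wild-type cells. In both genotypes, and in both HSC and MPP4, the library of the females of 10 weeks was the highest.

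In CLP none of the 5 genes passed and none had an unadjusted p under 0.05, where 0% of all genes were called by limma (507 had an unadjusted p under 0.05). Tob1 differed by 0.19 (SE 0.16, 95% interval -0.14 to 0.51, adjusted p = 0.9998 by limma), and the other members by -0.14 to 0.04. The difference between the genotype effects in CLP and in HSC was tested directly and was -0.35 for Tob1 (SE 0.22, 95% interval -0.81 to 0.11, adjusted p = 0.9997 by limma), with 0.0087% of all genes called. For none of the 5 genes was that difference called or its unadjusted p under 0.05, so the data do not show that the genotype effect on Tob1 was smaller in CLP than in HSC.

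**Figure D2:**
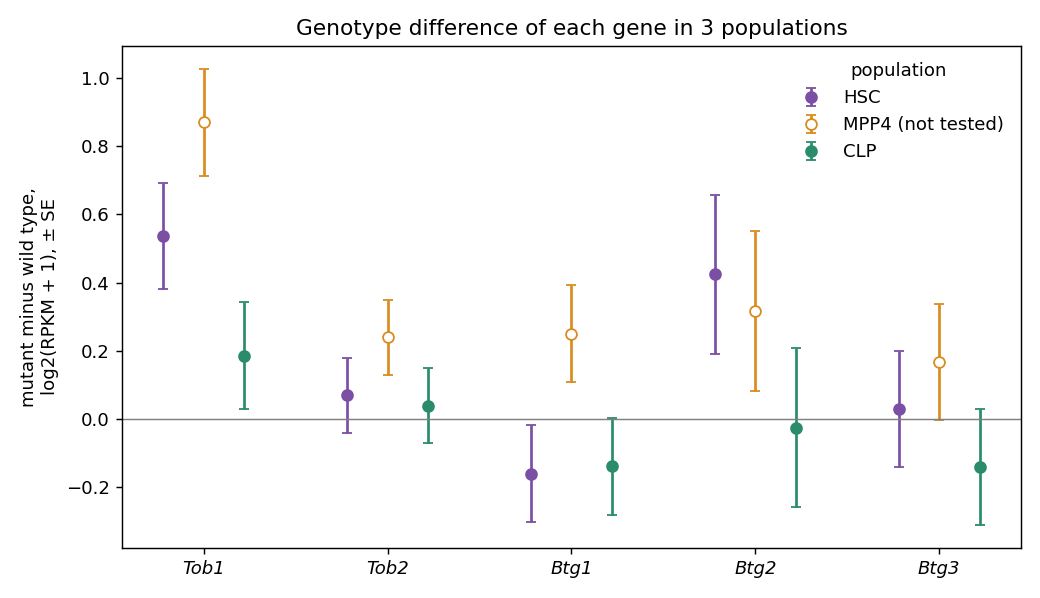
Mutant minus wild-type difference in log2(RPKM + 1) (vertical axis) for each of the 5 genes (horizontal axis) in HSC, MPP4 and CLP, with bars for ± SE from limma and open symbols for the MPP4 values, which were not tested. Tob1 has the largest of the plotted differences in MPP4, at 0.87, and 0.54 in HSC, and the CLP values lie between -0.14 and 0.19.

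Marker genes moved with genotype in MPP4, and their part in the Tob1 difference was not tested. Of 15 stem cell genes 14 were higher on average in mutant MPP4 (2 called, median 0.55), and their summed level was 179.8 to 219.6 RPKM in the mutant and 101.1 to 134.3 in the wild-type libraries, against 1035 or more in every HSC library. The erythroid genes were higher in 12 of 12 cases (none called by limma, 8 with an unadjusted p under 0.05; sums 1355 to 3033 RPKM in mutant and 392.8 to 1768 in wild-type libraries), and the megakaryocyte genes in 8 of 9 (2 called; 60.3 to 253.1 in mutant and 29.96 to 204.9 in wild-type libraries). The lymphoid-primed genes were lower in 8 of 10 cases, summing to 1683 to 1923 RPKM in mutant and 2163 to 2494 in wild-type libraries, and the common lymphoid and B-lineage genes in 9 of 11 (2 called lower; 78.3 to 98.1 in mutant and 101.3 to 171.0 in wild-type libraries). Of 9 neutrophil granule genes 5 were higher in mutant MPP4 (none called by limma or with an unadjusted p under 0.05; sums 748.6 to 2338 RPKM in mutant and 574.8 to 1110 in wild-type libraries). The dendritic cell genes were lower in 7 of 9 cases (2 called lower; 179.0 to 234.9 RPKM in mutant and 222.8 to 262.3 in wild-type libraries), and the monocyte genes higher in 6 of 8 (none called by limma, 1 with an unadjusted p under 0.05; 351.7 to 533.7 in mutant and 320.1 to 367.4 in wild-type libraries). None of these markers was at 0 in every library of a group. In these bulk samples fewer cells of a type and less RNA per cell cannot be told apart.

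In HSC, where the Tob1 difference was tested, none of the markers was called between genotypes by limma, and their part in that difference was not tested either. The stem cell sums overlapped, at 1070 to 1147 RPKM in mutant and 1035 to 1240 in wild-type HSC (9 of 15 genes higher, none with an unadjusted p under 0.05). The megakaryocyte sums did not overlap, at 618.5 to 658.8 RPKM in mutant and 699.8 to 704.0 in wild-type HSC (6 of 9 genes lower, none with an unadjusted p under 0.05). The lymphoid-primed genes were lower in 8 of 10 cases (3 with an unadjusted p under 0.05), with sums of 133.8 to 153.7 RPKM in mutant and 130.9 to 171.2 in wild-type HSC. The neutrophil granule genes had a median of -1.23 (6 of 9 lower, 2 with an unadjusted p under 0.05). Their sums were 93.9 to 244.7 RPKM in mutant and 164.1 to 1451 in wild-type HSC. Libraries of a group differed widely for these genes, so the median does not rest evenly on them. S100a8 averaged 199.5 ± 306.9 RPKM in wild-type HSC (SD, n = 3), and Mpo, higher in the mutant, 31.9 ± 58.1 in mutant HSC (SD, n = 4). The erythroid genes were higher in 9 of 12 cases (2 with an unadjusted p under 0.05), at 977.7 to 2600 RPKM in mutant and 898.4 to 3231 in wild-type HSC. In CLP no marker was called between genotypes either by limma. The common lymphoid and B-lineage genes were lower in 11 of 11 cases in mutant CLP (median -0.55, 3 with an unadjusted p under 0.05). Their sums were 757.2 to 1721 RPKM in mutant and 1229 to 1713 in wild-type CLP. Of the stem cell genes 12 of 15 were higher in mutant CLP. The erythroid sums were 99.3 to 2944 RPKM in mutant and 594.8 to 977.2 in wild-type CLP. The part of markers there was not tested.

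Division genes were also followed. The 24 genes of S, G2 and M phase summed to 1945 to 2529 RPKM in mutant MPP4 and 2416 to 2600 in wild-type MPP4, and 23 of 24 were lower on average in the mutant, none of them called by limma or with an unadjusted p under 0.05 (median -0.17). In CLP 20 of 24 were higher in the mutant (median 0.19), with sums of 2647 to 2937 RPKM in mutant and 2482 to 2939 in wild-type libraries, and in HSC 15 of 24 were higher, with sums of 1165 to 1598 RPKM in mutant and 859.7 to 1578 in wild-type libraries. None of these genes was called or had an unadjusted p under 0.05 in CLP or HSC either by limma.

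**Figure D3:**
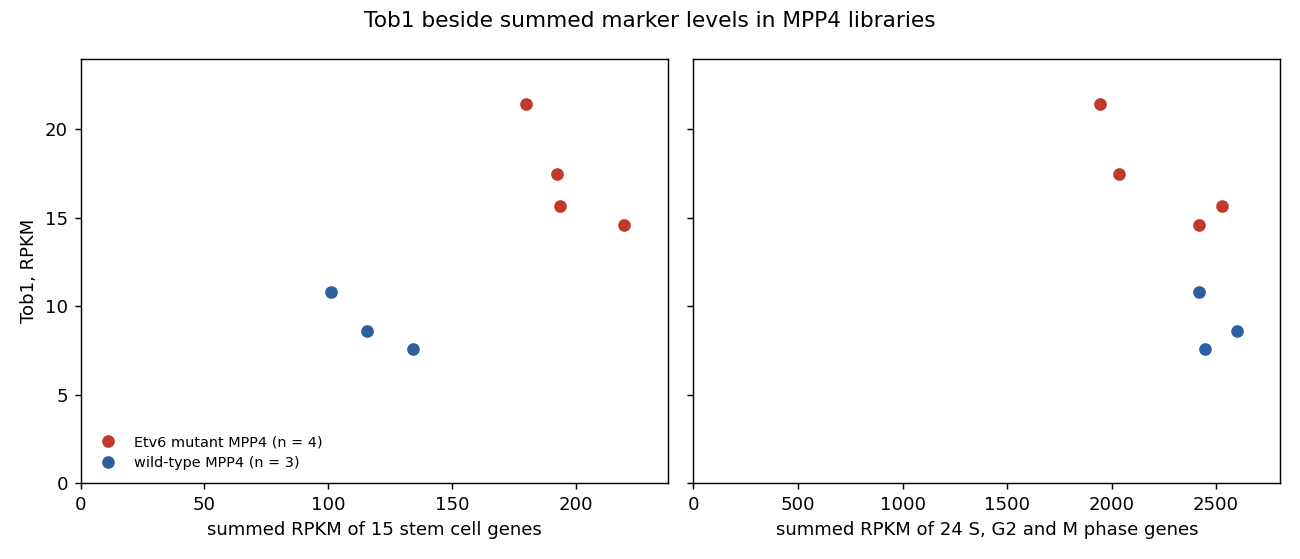
Tob1 level in RPKM (vertical axis) in the 7 MPP4 libraries against the summed RPKM of 15 stem cell genes (left) and of 24 S, G2 and M phase genes (right), with mutant libraries (n = 4) and wild-type libraries (n = 3) in separate colours. The stem cell sums lie between 179.8 and 219.6 RPKM in mutant and 101.1 and 134.3 in wild-type libraries, and the division sums overlap between genotypes.

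How the family changes along lymphoid specification was examined by comparing populations within each genotype. These comparisons share libraries (the same MPP4 libraries enter both steps), and so are not independent of each other. From HSC to MPP4 Btg2 rose in both genotypes, and its libraries did not overlap, a pattern seen for 15.3% of all genes in mutant and 20.4% in wild-type cells in that direction. In mutant cells 1 of the 4 tested members passed, where 39.1% of all genes were called (16% higher and 23.1% lower). Btg2 was 2.15 log2 higher in mutant MPP4, at 29.7 ± 5.77 RPKM, than in mutant HSC, at 6.06 ± 2.32 (SD, n = 4; SE 0.22, adjusted p = 1.12e-07 by limma). Btg1 differed by -0.11 between mutant MPP4 and HSC (adjusted p = 0.531 by limma), with overlapping libraries.

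In wild-type cells 2 of the 4 tested members passed from HSC to MPP4, where 39.3% of all genes were called (16.1% higher and 23.3% lower). Btg2 was 2.26 log2 higher in wild-type MPP4, at 23.5 ± 4.03 RPKM, than in wild-type HSC, at 4.19 ± 1.35 (SD, n = 3; SE 0.25, adjusted p = 4.48e-07 by limma). Btg1 was 0.52 lower, at 6.86 ± 0.759 RPKM in MPP4 and 10.3 ± 1.37 in HSC (SE 0.15, adjusted p = 0.00906 by limma). Without wild-type HSC replicate 3 this call was lost (-0.43, adjusted p = 0.054 by limma; 0.00663 to 0.054 over all alternatives). Whether the step of Btg1 differs between the genotypes was not tested. The libraries of Btg3 did not overlap between wild-type MPP4 and HSC either, as for 30.6% of all genes that were lower in MPP4, but its change of -0.35 was not called (adjusted p = 0.132 by limma). Tob1, given without a test, differed by -0.20 between mutant MPP4 and mutant HSC (SE 0.15) and by -0.53 between wild-type MPP4 and wild-type HSC (SE 0.17).

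From MPP4 to CLP Btg1 was the single call among the 4 tested members in either genotype. It was 0.75 log2 higher in mutant CLP, at 14.8 ± 2.13 RPKM, than in mutant MPP4, at 8.37 ± 1.16 (SD, n = 4; SE 0.13, adjusted p = 0.000212 by limma), with 24.3% of all genes called, 7.86% higher and 16.4% lower. It was 1.14 higher in wild-type CLP, at 16.5 ± 3.54 RPKM, than in wild-type MPP4, at 6.86 ± 0.759 (SD, n = 3; SE 0.15, adjusted p = 2.14e-05 by limma), with 13.1% of all genes called, 4.77% higher and 8.38% lower. Of all calls of this step 32.4% were higher in mutant CLP and 36.3% in wild-type CLP, shares that were 46.3% in mutant and 45.4% in wild-type cells after quantile normalization, and 46.5% and 46.3% after median-ratio scaling. Btg2 differed by -0.02 between mutant CLP and MPP4 (adjusted p = 0.947) and by 0.32 between wild-type CLP and MPP4 (adjusted p = 0.491 by limma). Tob1, not tested, differed by -1.22 between mutant CLP and MPP4 (SE 0.15) and by -0.54 between wild-type CLP and MPP4 (SE 0.17), without overlap in either genotype. Libraries without overlap were lower in CLP for 16.4% of all genes in mutant and 18.8% in wild-type cells, and higher, as for Btg1, for 9.05% in mutant and 11.2% in wild-type cells.

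Markers of other cell types moved with these steps as well, none of them at 0 in every library of a group, and their part in the changes of Btg1 and Btg2 was not tested. Beside their counts, 39.1% of all genes in mutant and 39.3% in wild-type cells were called between MPP4 and HSC. Between CLP and MPP4 these shares were 24.3% and 13.1%. Between MPP4 and HSC 6 of 9 dendritic cell genes were called higher in mutant and 7 in wild-type cells, 7 of 9 megakaryocyte genes were called lower in mutant and 8 in wild-type cells, and 4 of 9 neutrophil granule genes were called higher in mutant and 2 in wild-type cells. The megakaryocyte sums were 60.3 to 253.1 RPKM in mutant MPP4 against 618.5 to 658.8 in mutant HSC, and 29.96 to 204.9 in wild-type MPP4 against 699.8 to 704.0 in wild-type HSC. The neutrophil sums were 748.6 to 2338 RPKM in mutant MPP4 against 93.9 to 244.7 in mutant HSC, and overlapped in wild-type cells, at 574.8 to 1110 in MPP4 against 164.1 to 1451 in HSC. Of 8 monocyte genes 5 were called higher in each genotype, of 8 T, NK and innate lymphoid genes 5 were called higher and 2 lower in mutant and 4 higher and 2 lower in wild-type cells, and of 12 erythroid genes 1 was called higher and 4 lower in mutant and 1 higher and 5 lower in wild-type cells.

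Between CLP and MPP4 5 of the dendritic cell genes were called higher in mutant and 4 in wild-type cells, with sums of 679.7 to 760.3 RPKM in mutant CLP against 179.0 to 234.9 in mutant MPP4, and 581.2 to 886.5 in wild-type CLP against 222.8 to 262.3 in wild-type MPP4. Of the megakaryocyte genes 5 were called lower in mutant and 2 in wild-type cells, of the neutrophil genes 2 in each genotype, and of the T, NK and innate lymphoid genes 3 were called higher in mutant and 4 in wild-type cells. Of the erythroid genes 1 was called higher and 4 lower in mutant and 1 higher and 2 lower in wild-type cells, and of the monocyte genes 1 was called lower in mutant and none in wild-type cells by limma (3 with an unadjusted p under 0.05).

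**Figure D4:**
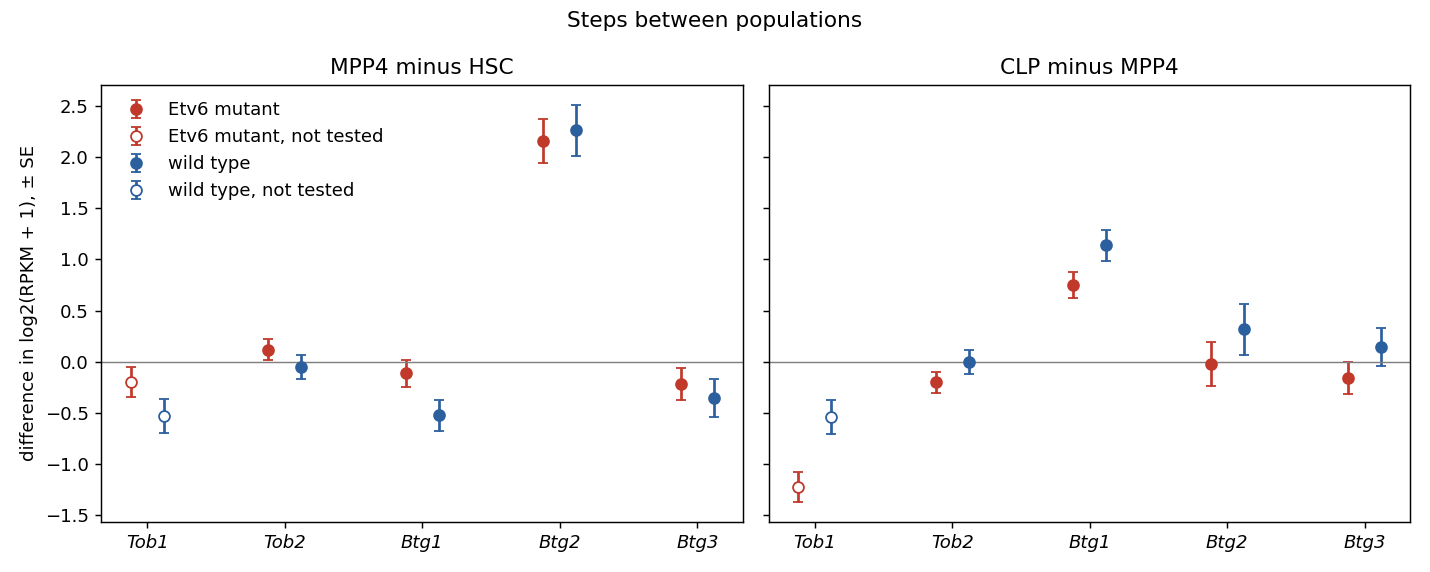
Difference in log2(RPKM + 1) (vertical axis) between MPP4 and HSC (left) and between CLP and MPP4 (right) for each of the 5 genes (horizontal axis), in mutant and wild-type cells, with bars for ± SE from limma and open symbols for Tob1, which was not tested. Btg2 lies at 2.15 in mutant and 2.26 in wild-type cells in the first step, and Btg1 at 0.75 in mutant and 1.14 in wild-type cells in the second.

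Between the ends of the series all 5 genes could be tested, since no MPP4 library formed part of the contrast. In mutant cells 4 of 5 passed, where 57.8% of all genes were called (21.8% higher and 36% lower), and in wild-type cells 3 of 5 passed, where 51.1% were called (19.4% higher and 31.7% lower). These counts are near the background of called genes. Tob1 did not overlap between CLP and HSC in either genotype, as for the 32% of all genes in mutant and 34% in wild-type cells that were lower in CLP, and Btg1 and Btg2 did not overlap in the other direction, as for 19.6% of all genes in mutant and 20.9% in wild-type cells. Btg2 was 2.13 log2 higher in mutant CLP than in mutant HSC (SE 0.22, adjusted p = 4.96e-08 by limma) and 2.58 higher in wild-type CLP than in wild-type HSC (SE 0.25, adjusted p = 3.41e-08). Tob1 was 1.42 lower in mutant CLP, at 6.78 ± 0.661 RPKM, than in mutant HSC, at 19.9 ± 1.99 (SD, n = 4; SE 0.15, adjusted p = 5.22e-08 by limma). It was 1.07 lower in wild-type CLP, at 5.85 ± 0.669 RPKM, than in wild-type HSC, at 13.7 ± 3.66 (SD, n = 3; SE 0.17, adjusted p = 2.06e-05 by limma).

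Btg1 was 0.64 log2 higher in mutant CLP than in mutant HSC (SE 0.13, adjusted p = 0.000331 by limma) and 0.61 higher in wild-type CLP than in wild-type HSC (SE 0.15, adjusted p = 0.00204). Btg3 was 0.38 lower in mutant CLP than in mutant HSC (SE 0.16, adjusted p = 0.0453 by limma). That call was lost under 4 of the 9 other settings and when mutant HSC replicate 1 or 2 or mutant CLP replicate 3 or 4 was left out (lost values -0.40 to -0.19, adjusted p = 0.0546 to 0.308 by limma). In wild-type cells Btg3 differed by -0.21 (adjusted p = 0.352 by limma). Tob2 differed by -0.09 in mutant and -0.05 in wild-type cells (adjusted p = 0.488 and 0.727 by limma). The median change of all genes was -0.11 in mutant and -0.10 in wild-type cells on the values as deposited. Of all calls 37.6% in mutant and 37.9% in wild-type cells were higher in CLP, and these shares were 49.9% and 51.3% after quantile normalization and 49.2% and 48.8% after median-ratio scaling. Under median-ratio scaling Tob2 changed sign, to 0.03 in mutant and 0.05 in wild-type cells, while Tob1, Btg1 and Btg2 kept their direction and call under all 9 other settings.

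The partners through which the family acts were taken from a list of the CCR4-NOT complex, of which all 12 genes were measured. In mutant cells 3 of 12 were higher and 1 lower in MPP4 than in HSC (median 0.15, against -0.05 for all genes), and in wild-type cells 3 were higher and 2 lower (median 0.14, against -0.06). Over all genes 39.1% were called in mutant cells (16% higher and 23.1% lower) and 39.3% in wild-type cells (16.1% higher and 23.3% lower). The counts called in the complex are near these totals. Of the 2 related catalytic subunits that Tob and Btg proteins bind, Cnot8 was higher in MPP4 than in HSC in both genotypes. It was 0.44 log2 higher in mutant MPP4, at 81.6 ± 2.77 RPKM, than in mutant HSC, at 60.2 ± 7.06 (SD, n = 4, adjusted p = 0.000101 by limma). It was 0.56 higher in wild-type MPP4, at 88.4 ± 5.86 RPKM, than in wild-type HSC, at 59.8 ± 2.74 (SD, n = 3, adjusted p = 3.83e-05 by limma). Cnot7 differed by -0.23 between mutant MPP4 and HSC (adjusted p = 0.0742), and was 0.32 lower in wild-type MPP4, at 18.4 ± 0.766 RPKM, than in wild-type HSC, at 23.5 ± 3.50 (adjusted p = 0.033 by limma). That wild-type call was lost after quantile normalization (adjusted p = 0.0606) and median-ratio scaling (adjusted p = 0.0661 by limma).

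Among the other subunits the deadenylase subunits Cnot6 and Cnot6l were each 0.31 log2 higher and Tnks1bp1 was 1.23 lower in mutant MPP4 than in mutant HSC. The scaffold Cnot1 (0.48) and Rqcd1, the name used here for the Cnot9 subunit (0.41), were higher and Tnks1bp1 (-1.16) was lower in wild-type MPP4 than in wild-type HSC. Between CLP and MPP4 the complex had 2 higher and none lower in mutant cells, Cnot8 (0.22) and the structural subunit Cnot2 (0.20), neither of which was called after quantile normalization (4 genes were called higher after median-ratio scaling). In wild-type cells it had 1 higher, Cnot2 (0.33, adjusted p = 0.00488 by limma), and 1 lower, Tnks1bp1 (-0.69), which was not called after quantile normalization. Over all genes 24.3% were called in this step in mutant and 13.1% in wild-type cells.

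Other genes of the pathway changed in both directions between MPP4 and HSC, where 39.1% of all genes were called in mutant and 39.3% in wild-type cells. Of 14 kept genes for poly(A) tail binding and other deadenylases 1 was higher and 1 lower in mutant cells (2 lower with the replicate block), and 1 was higher and 3 lower in wild-type cells. In wild-type cells these were the deadenylase subunit Pan3 (0.85), and Gspt2 (-1.52), Cpeb4 (-0.62, not called after quantile normalization) and the deadenylase Parn (-0.29, not called after median-ratio scaling). Of 6 kept genes for other binding partners, 1 was higher and 1 lower in each genotype. Prmt1, the methyltransferase that Btg1 and Btg2 bind, was 0.28 log2 higher in mutant MPP4 than in mutant HSC (adjusted p = 0.0288, not called after quantile normalization) and 0.50 higher in wild-type MPP4, at 108.9 ± 5.10 RPKM, than in wild-type HSC, at 77.2 ± 12.6 (SD, n = 3, adjusted p = 0.0014 by limma). Smad3, a transforming growth factor beta mediator, was 0.34 lower in mutant (adjusted p = 0.00606) and 0.59 lower in wild-type MPP4 than in HSC (adjusted p = 0.000174 by limma). Of 29 genes for cytoplasmic decay 4 were higher and 1 lower in each genotype, a smaller share than among all genes. All those higher encode Lsm proteins, which bind the shortened tails of messages, led by Lsm3 (0.82 in mutant and 0.91 in wild-type cells), and those lower, Dcp1a in mutant (-0.21) and Zfp36l1 in wild-type cells (-0.67), were not called after quantile normalization.

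Between CLP and MPP4 few genes of these lists passed by limma, where 24.3% of all genes were called in mutant and 13.1% in wild-type cells. Of the poly(A) list none was higher and 2 lower in mutant cells, Cpeb4 (-0.65) and Gspt2 (-0.93), neither called after quantile normalization, and none of either in wild-type cells (1 gene with an unadjusted p under 0.05; 1 higher with the replicate block). Of the binding partners none passed in either genotype (2 genes in mutant and 1 in wild-type cells with an unadjusted p under 0.05; 1 lower in wild-type cells with the replicate block). Of the decay list 1 was higher in each genotype, Lsm3 in mutant (0.48) and Zfp36l1, an mRNA decay factor, in wild-type cells (0.71), and after quantile normalization 4 were higher in mutant cells.

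Of the 24 genes of S, G2 and M phase 23 were higher in mutant MPP4 than in mutant HSC (median 1.12) and 24 in wild-type MPP4 than in wild-type HSC (median 1.25), among them the mitotic kinase gene Aurkb at 92.9 RPKM in wild-type MPP4 and 30.5 in wild-type HSC (1.64). Of 18 kept G1 cyclins and CDK inhibitors 8 were higher and 4 lower in mutant cells, and 7 were higher and 5 lower in wild-type cells. Over all genes 39.1% were called in mutant and 39.3% in wild-type cells in this step. Cdkn1a, which encodes the p21 inhibitor and is a p53 target, was 1.96 log2 higher in mutant MPP4, at 6.89 ± 0.809 RPKM, than in mutant HSC, at 1.09 ± 0.636 (SD, n = 4, adjusted p = 4.21e-08 by limma). It was 2.06 higher in wild-type MPP4, at 12.1 ± 0.479 RPKM, than in wild-type HSC, at 2.16 ± 0.355 (SD, n = 3, adjusted p = 1.71e-07 by limma). The p57 inhibitor gene Cdkn1c was 3.59 lower, at 0.551 RPKM in wild-type MPP4 and 18.5 in wild-type HSC (adjusted p = 4.61e-12 by limma).

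Between CLP and MPP4 4 of the 24 division genes were higher in mutant cells (1 after quantile normalization), and none passed in wild-type cells by limma, nor had an unadjusted p under 0.05. Of the G1 genes 7 were higher and 2 lower in mutant cells, and 3 were higher, Ccnd3 (1.28), Cdkn1a (1.70) and Ccnd2 (0.51), and none lower in wild-type cells. With the replicate block 4 were higher and 1 lower in wild-type cells. Over all genes 24.3% were called in mutant and 13.1% in wild-type cells in the main fit.

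The lists of p53, immediate early and FoxO genes, inputs known to act on Btg1 or Btg2, had members on both sides. Between MPP4 and HSC 39.1% of all genes were called in mutant and 39.3% in wild-type cells. Of 14 kept p53 targets 4 were higher and 4 lower in mutant MPP4 than in HSC, and 4 were higher and 5 lower (3 after quantile normalization) in wild-type MPP4 than in HSC, where Phlda3 stood at 1.79 and Plk2 at -2.22. Of 19 kept immediate early genes 2 were higher and 6 lower in mutant cells (5 higher with the replicate block), and 3 were higher and 5 lower in wild-type cells. Egr1, a serum response gene, was 2.19 lower in mutant MPP4 than in mutant HSC (adjusted p = 2.77e-06 by limma) and 2.61 lower in wild-type MPP4, at 2.02 RPKM, than in wild-type HSC, at 18.8 (adjusted p = 1.91e-06 by limma). Of 16 kept FoxO targets and quiescence genes 6 were higher and 6 lower in mutant cells (median -0.38), and 5 were higher and 7 lower in wild-type cells (median -0.42).

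Between CLP and MPP4, where Btg1 rose, 3 FoxO list genes were higher and 6 lower in mutant cells, and 3 were higher and 3 lower in wild-type cells (5 lower with the replicate block). Over all genes 24.3% were called in mutant and 13.1% in wild-type cells. Among those higher in both genotypes was Il7r, at 91.3 ± 3.73 RPKM in wild-type CLP and 11.6 ± 4.01 in wild-type MPP4 (SD, n = 3). Il7r marks the CLP gate, so its place in these counts comes with the sort. Foxo1 was 1.44 higher in wild-type CLP, at 13.5 ± 7.06 RPKM, than in wild-type MPP4, at 4.04 ± 0.789 (SD, n = 3, adjusted p = 0.00869 by limma), the lymphocyte quiescence factor Klf2 was 1.52 higher, and Foxo3 was 0.52 lower, a call lost after quantile normalization. Of the p53 targets 3 were higher and 2 lower in mutant cells, and 2 of each in wild-type cells. Of the immediate early genes 1 was higher and 5 lower in mutant cells, and 1 was higher and 3 lower in wild-type cells. After quantile normalization the immediate early genes called lower were 3 in mutant and 1 in wild-type cells.

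**Figure D5:**
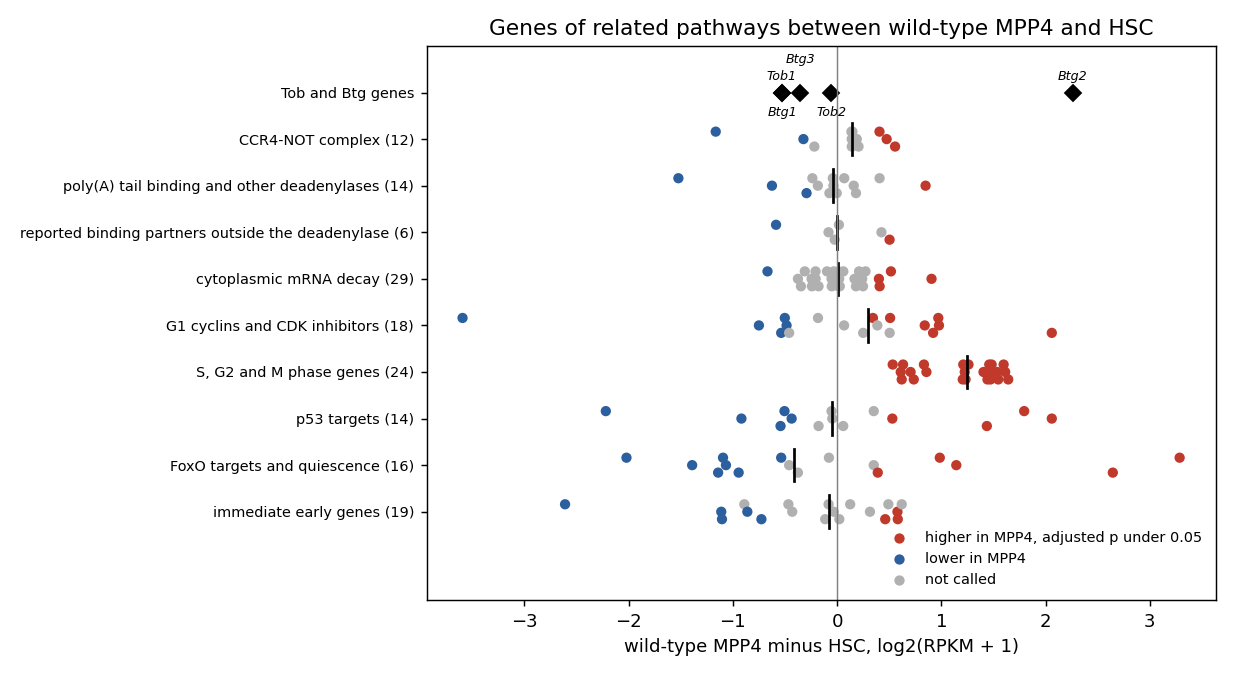
Difference in log2(RPKM + 1) between wild-type MPP4 and wild-type HSC (horizontal axis) for the 5 Tob and Btg genes (diamonds, Tob1 not tested) and for the kept genes of 9 pathway lists (1 row each, gene number in brackets), with a black line at each list's median. The 24 S, G2 and M phase genes all lie above 0 with a median of 1.25, and the CCR4-NOT genes lie on both sides of 0 with a median of 0.14.

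Between genotypes none of the 147 distinct genes of these 9 lists passed in any population by limma. An unadjusted p under 0.05 was found for 4 of them in HSC, 15 in MPP4 and 8 in CLP, which is 2.72%, 10.2% and 5.44% of the list genes, beside 4.45%, 8.14% and 4.41% of all genes in the same populations. Cnot7 averaged 20.9 ± 1.09 RPKM in mutant MPP4 and 18.4 ± 0.766 in wild-type MPP4, and Cnot8 81.6 ± 2.77 RPKM in mutant and 88.4 ± 5.86 in wild-type MPP4 (SD, n = 4 and 3, adjusted p = 0.783 and 0.814 by limma). Cdkn1a averaged 6.89 ± 0.809 RPKM in mutant MPP4 and 12.1 ± 0.479 in wild-type MPP4 (-0.74, adjusted p = 0.168 by limma).

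Genes with the profile most like each member were looked for over the 6 group means of log2(RPKM + 1), among 2261 genes with a group mean of at least 5 RPKM and a span of at least 1 log2 unit. With 6 points the Pearson r is a description of likeness alone. Nearest to Tob1 were Trib2 (r = 0.98), Tubb1 (0.98), 2210408F21Rik (0.98), Slfn5 (0.97) and Fech (0.97). Trib2 averaged 6.24 RPKM in mutant HSC and 4.15 in wild-type HSC, 4.53 in mutant MPP4 and 2.36 in wild-type MPP4, and 0.971 in mutant CLP and 0.545 in wild-type CLP. The mutant MPP4 mean of Tubb1 rested on 1 library, which measured 85.0 RPKM while the other 3 were at most 0.441 RPKM. Nearest to Btg2 were Cracr2a, Arsb and C330027C09Rik (r of 0.995 to 0.997), to Btg1 Ppp1r21, Ccnd3 and Dok3 (0.97 each), to Btg3 Gm11944, 2900005J15Rik and Yod1 (0.98 each), and to Tob2 Trim10, Cldn13 and Tmcc2 (0.85 to 0.87). The group means of Tob2 lay between 30.5 and 36.2 RPKM, so its likeness rests on small differences. Its nearest gene Trim10 ran from 3.03 to 10.5 RPKM within mutant MPP4. Ccnd3, a D-type cyclin, averaged 91.5 ± 13.6 RPKM in mutant CLP and 91.3 ± 6.65 in wild-type CLP, and 37.3 ± 1.60 in mutant MPP4 and 37.0 ± 3.21 in wild-type MPP4 (SD, n = 4 and 3).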

How the data were processed

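RNA from cells sorted into lysis buffer was amplified with SMART-seq v4 and made into Nextera XT libraries, per the labels' protocols. Reads were aligned with STAR to mm10, per the submitters' processing notes, and the authors deposited 1 table of RPKM values for 11628 genes in 21 libraries. No source used here names the annotation or the counting tool. Of the gene symbols, 16 that a spreadsheet had turned into dates were restored by Entrez ID. Genes at 1 RPKM or more in at least 3 libraries were kept (132 were dropped), and log2(RPKM + 1) was fitted with limma 3.58.1 in R 4.3.3, with 1 mean per group, a mean-variance trend, 15 residual and 4.62 prior degrees of freedom, Benjamini-Hochberg adjustment over 11496 genes and a two-sided threshold of 0.05. Fold changes on this scale understate those of low genes. The code was tested on simulated data. The 5 members all passed the filter. The members and lists were chosen with earlier results of these data known. In each list the text names at most the 3 largest changes each way among genes past the test, or otherwise at most 2 with the smallest p, and the 5 (Tob1) or 3 genes nearest in profile. Alternatives were other pseudocounts, filters and scalings, separate fits, sex and age terms, a replicate block and each library left out. The main fit paired no libraries, and the replicate block was an alternative run in every comparison. Between populations it joined libraries of the same genotype and replicate number. In comparisons of genotypes it joined the same number across genotypes, which cannot be 1 mouse. Mutant replicate 4 was labelled 12 weeks in HSC and MPP4 and 10 weeks in CLP, so its libraries may not share a mouse. Same-numbered libraries were counted as paired where every pair's deviations from the group means correlated above 0.1. This held in 4 of the 6 comparisons between populations (mutant MPP4 and CLP against HSC, wild-type CLP against MPP4 and HSC; r 0.103 to 0.481), and in none of the 3 between genotypes; labels do not name the mice. Promoters are from RefSeq GRCm38.p6.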

Additional observations from a re-analysis of the deposited data

Results flagged for a closer look

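Btg3 in mutant HSC replicate 2 stood apart from the other 3 mutant HSC libraries, at 14.3 RPKM against 10.3 to 10.96 RPKM. Its gap to the nearest library was 0.834 of the range of the group, just above the critical value of 0.829 for 4 libraries. It was the single such library in the 15 groups of 4 examined, and chance flags about 1 in 20. Without it Btg3 was 0.07 log2 lower in mutant than in wild-type HSC, where it was 0.03 higher with all libraries.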

How the results depend on the processing

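Of 835 values of members under alternatives, 793 counted as the same, 33 changed sign and 9 lost a call, none of the latter for Tob1 or Btg2. To count as the same, tested values had to keep their direction and side of the threshold. Values given without a test had to stay within the largest group SD of the main value. For mutant against wild-type MPP4 the 25 called genes were 0 with a pseudocount of 0.1, 14 with 0.5, 3 with the groups alone and 48 with sex and age terms, and 7 to 19 with 1 library left out. For HSC the 6 called genes were 12 after quantile normalization, 0 with the groups alone and 2 to 7 with 1 library left out, and for CLP 0 to 5. The 1 gene called for the difference of genotype effects was 0 with the groups alone, 2 with the replicate block and 0 to 3 with 1 library left out. Tob1 in HSC stayed between 0.51 and 0.57 (0.34 to 0.71 with 1 library left out), with an adjusted p of 0.154 to 0.9999, and in MPP4 between 0.82 and 0.94 (0.77 to 1.00).

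The wild-type step from HSC to MPP4 called 1 to 2 members with 1 library left out. Sign changes under a scaling were, with median-ratio scaling, Tob2 in CLP against HSC (0.0304 in mutant, 0.0541 in wild type) and Btg2 in mutant CLP against MPP4 (0.0486), and with sex and age terms Btg1 in the difference of genotype effects (-0.0211). With 1 library left out, genotype differences of changing sign ran from -0.0732 to 0.0835 for Btg3 in HSC, and in CLP from -0.0461 to 0.18 for Tob2, -0.17 to 0.0813 for Btg2 and -0.28 to 0.0251 for Btg3. For CLP against MPP4 they ran from -0.14 to 0.0853 for Tob2 in wild type, and in mutant from -0.16 to 0.0822 for Btg2 and -0.30 to 0.00277 for Btg3, and for wild-type Tob2 in CLP against HSC from -0.20 to 0.0304. For the difference of genotype effects they ran from -0.16 to 0.12 for Btg1 and -0.12 to 0.11 for Tob2. Causes were not tested.

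Same-numbered libraries met the rule for pairing in 4 of 6 comparisons between populations, though the main fit paired none. In the other 2, wild-type MPP4 against HSC and mutant CLP against MPP4, 1 pair each lay below 0.1 (r 0.094 and 0.096), and across genotypes 5 of 9 pairs lay above it. With the replicate block Tob1 differed by 0.51 in HSC (adjusted p = 0.305 by limma), and the block changed no call of a member in any comparison; it gave 5120 called genes in place of 4522 for wild-type MPP4 against HSC and 3414 in place of 2790 for mutant CLP against MPP4. Depth is unknown, so counting error could not be given.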
